A study of Mus musculus with 8 samples.

Results

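The 9 genes described here restrain or report bone morphogenetic protein (BMP) signalling. They are the secreted antagonists Nog, Grem1 and Chrd, the membrane pseudoreceptor Bambi, the inhibitory Smads Smad6 and Smad7, and the Id genes Id1, Id2 and Id3. They were found by gene name in the deposited annotation, where each name has 1 assembled locus of its own, so 9 of 26747 loci were taken. Expression was compared between stomachs of Nkx3.2Cre;R26-YAP5SA mouse embryos, called YAP5SA, and of wild type embryos, all at E13.5, with 4 RNA-seq libraries of whole stomach in each genotype. In YAP5SA embryos Cre made from the Nkx3-2 gene, which is active in stomach mesenchyme, turns on a YAP variant from the Rosa26 locus that the Hippo kinases cannot restrain. The controls are labelled wild type, and with no group of Cre alone, effects of the Cre allele and of YAP5SA cannot be told apart. The labels do not say whether a library came from 1 stomach or from a pool, so p-values rest on library-to-library spread, which may be partly technical.

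BMP ligands bind receptor kinases that phosphorylate SMAD1, SMAD5 and SMAD9, and these enter the nucleus with SMAD4 to switch on target genes. Noggin, gremlin and chordin bind BMP ligands outside the cell and keep them from the receptors. Some direct targets are themselves brakes on the pathway. BAMBI is a receptor-like protein without a kinase, and SMAD6 and SMAD7 block the receptors and SMAD4. Other targets, the Id genes, encode proteins that bind E proteins and keep them off DNA. In the developing gut, BMP signals pass between epithelium and mesenchyme and take part in patterning the pyloric region and the muscle layers.

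The YAP5SA libraries held 7293556 to 8513116 fragments and the wild type libraries 6328344 to 6919353. Library profiles (log2 CPM) correlated at 0.973 to 0.986 within YAP5SA, 0.97 to 0.986 within wild type and 0.936 to 0.955 between genotypes. The stomach mesenchyme gene Barx1 was at 92.3 ± 9.62 FPKM in YAP5SA and 102 ± 2.18 FPKM in wild type (SD, n = 4). The deepest library, YAP5SA replicate 1, stood apart from the other YAP5SA libraries in several genes named below, and results that turn on it are given without it. Levels are FPKM, fragments scaled by transcript length and library depth, as the authors deposited them. Fold changes are on the log2 scale, YAP5SA minus wild type, from edgeR's quasi-likelihood test on the fragment counts. A gene was called at a Benjamini-Hochberg adjusted p under 0.05 over 14574 tested loci, and SE is the standard error.

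All 9 genes were tested. In YAP5SA stomachs 5 of them were called higher (Nog, Smad7, Smad6, Bambi and Id2) and 0 lower, where 9.06% of all tested loci were called higher, 9.85% lower and 18.9% in either direction. By edgeR 0 of the 9 had a lower level even at an unadjusted p under 0.05 (0.058 for Grem1), and DESeq2 also called 0 lower. Nog moved most, to 3.95 times its wild type level, and was the 1 gene of the 9 at or above a 2-fold rise, which 2.56% of tested loci reached with a call. It was followed by Smad7 at 1.72 times and Smad6 at 1.48 times. Bambi and Id2 moved by 1.21 and 1.15 times, and Grem1, Chrd, Id1 and Id3 had no call. The same 5 genes were the ones whose 4 YAP5SA libraries all lay above the 4 wild type libraries in FPKM, which held for 11.4% of tested loci, and for 0 of the 9 did all YAP5SA libraries lie below, against 11.7% of tested loci. Without wild type replicate 4 the number called higher was 3, because Bambi and Id2 lost their calls. With the replicate number as a block it was 4, without Id2. The median log2 fold change was 0.20 over the 9 genes and −0.01 over all tested loci.

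**Figure D1:**
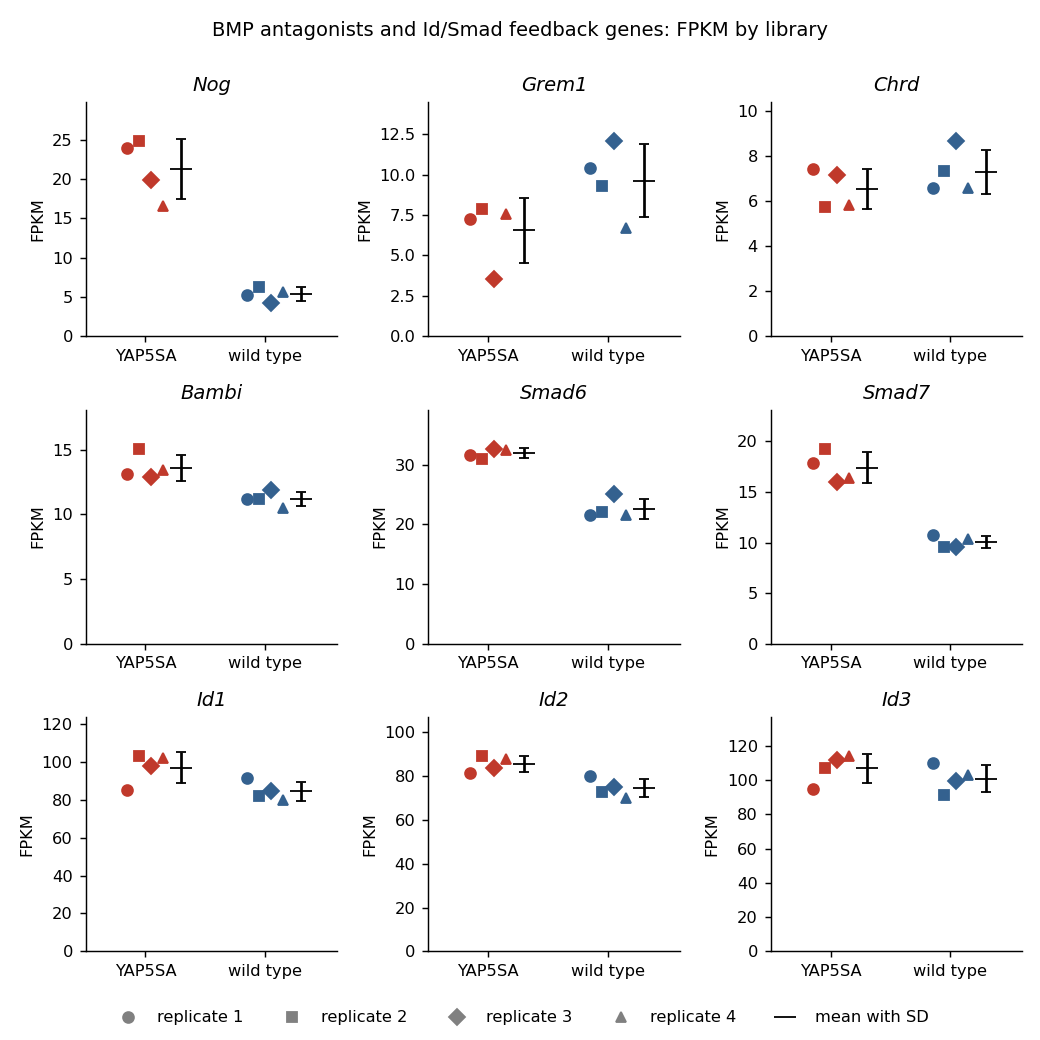
FPKM of each gene in each library, with YAP5SA (red) left of wild type (blue), 1 symbol per replicate number, and the mean with SD (n = 4) beside the points; each y axis starts at 0. Nog lies at 16.6 to 24.9 in YAP5SA and 4.26 to 6.27 in wild type, while the points of Grem1, Chrd, Id1 and Id3 overlap between the genotypes.

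Nog encodes noggin, which binds BMP2 and BMP4 and covers their receptor contacts. Its locus spans chr11:89300638-89302559 (mm10, minus strand, protein-coding). The YAP5SA libraries stood at 24.0, 24.9, 19.9 and 16.6 FPKM of Nog, against 5.26, 6.27, 4.26 and 5.66 FPKM in wild type. Every YAP5SA library lay far above the highest wild type library. The means were 21.4 ± 3.86 FPKM in YAP5SA and 5.36 ± 0.843 FPKM in wild type (SD, n = 4), resting on 216 to 349 fragments per YAP5SA library and 50 to 75 per wild type library. The log2 fold change was 1.98 ± 0.16 (SE, adjusted p = 6.7e-05), and among all tested loci Nog ranked 40 by p and 113 by fold change. In these whole stomachs, more cells that express a gene and more RNA per cell cannot be told apart.

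Grem1 encodes gremlin, an antagonist that also binds BMP2 and BMP4 (chr2:113748675-113758648, mm10, minus strand, protein-coding). It was at 7.26, 7.87, 3.52 and 7.55 FPKM in the YAP5SA libraries, against 10.4, 9.31, 12.1 and 6.68 FPKM in wild type. The groups overlap through wild type replicate 4, and YAP5SA replicate 3 is far below the other YAP5SA libraries. The log2 fold change of Grem1 was −0.56 ± 0.26 (SE, adjusted p = 0.18), with a 95% interval of −1.15 to 0.02. It was −0.36 without YAP5SA replicate 3 (adjusted p = 0.32), and ranged from −0.7 to −0.36 as each library was left out in turn, with no call. The counts were low, with 38 to 88 fragments per YAP5SA library and 62 to 118 per wild type library. The coefficient of variation of Grem1 in FPKM was 31% over the YAP5SA libraries and 23.5% over the wild type libraries.

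Chrd encodes chordin, which holds BMP ligands until the protease BMP1 or a related enzyme cleaves it. Its assembled locus (chr16:20724454-20742384, mm10) covers the annotated gene on the plus strand and the gene Thpo, which overlaps it on the minus strand. The use of strand is not given, so fragments in the overlap cannot be assigned with certainty. A separate locus named Thpo has the same span and held 11 to 20 fragments in YAP5SA and 10 to 15 in wild type libraries. This count cannot show how many fragments of the overlap were given to Chrd. Chrd was at 7.42, 5.72, 7.16 and 5.81 FPKM in YAP5SA, against 6.60, 7.34, 8.68 and 6.58 FPKM in wild type, and the groups overlap. The log2 fold change was −0.16 ± 0.13 (SE, adjusted p = 0.45), with a 95% interval of −0.45 to 0.12.

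The mix of the 3 secreted antagonists Nog, Grem1 and Chrd differed between the genotypes. Nog held 62.1%, 64.7%, 65.1% and 55.4% of the summed FPKM of Nog, Grem1 and Chrd in the YAP5SA libraries, and 23.6%, 27.3%, 17.1% and 29.9% in wild type. In wild type Nog had the lowest level of the 9 genes, and its libraries did not overlap those of Chrd, the next above it. In YAP5SA it was the fifth in level, overlapping Smad7 below it and clear of Smad6 above it. The summed level of the 3 antagonists was 34.4 ± 4.83 FPKM in YAP5SA and 22.3 ± 2.52 FPKM in wild type (SD, n = 4). This is not the sum of all secreted antagonists. Of 15 other tested secreted or extracellular modulators, 3 were called higher and 4 lower. Among the lower was Fst, at 21.9 FPKM in YAP5SA and 34.4 FPKM in wild type. Set against Bmp4, the most abundant BMP ligand transcript measured in YAP5SA, Nog stood at a FPKM ratio of 0.385 to 0.527 in YAP5SA and 0.146 to 0.192 in wild type. These sums and ratios describe the libraries and carry no test, since they are built from the chosen genes.

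**Figure D2:**
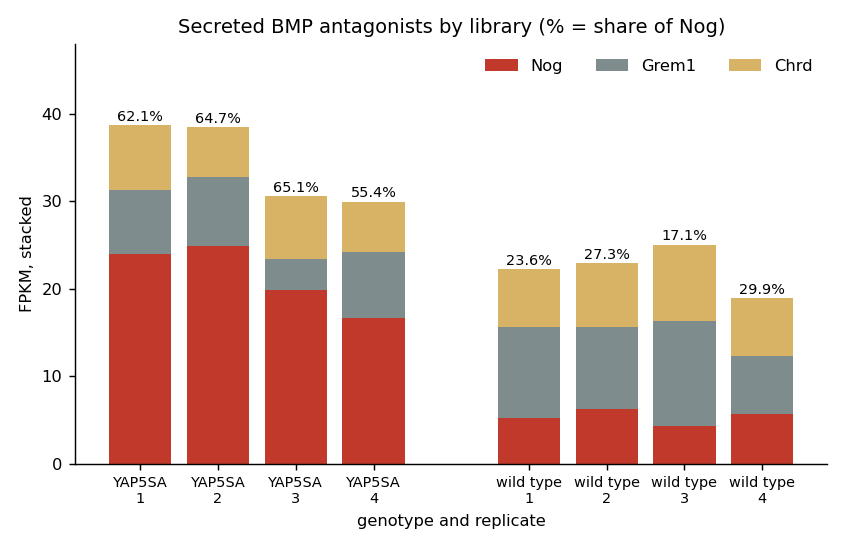
Stacked FPKM of Nog, Grem1 and Chrd in each library, YAP5SA left and wild type right, with the share of Nog above each bar. The share of Nog is 55.4% to 65.1% in YAP5SA and 17.1% to 29.9% in wild type.

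The loci most like Nog were taken as the 5 tested loci outside the BMP lists whose log2 CPM, relative to the wild type mean, lay nearest to that of Nog over the 8 libraries. They were Popdc3, Kcnf1, Got1l1, Lipg and Nuak1, at Euclidean distances of 0.357, 0.469, 0.503, 0.609 and 0.669 log2 units. Popdc3, a membrane protein gene of the Popeye family, was at 11.5, 12.2, 8.32 and 7.12 FPKM in YAP5SA and 1.83, 2.54, 1.68 and 2.73 FPKM in wild type. As with Nog, its YAP5SA replicates 1 and 2 were above replicates 3 and 4. Nuak1, a kinase gene related to AMPK, was at 36.8 to 43.8 FPKM in YAP5SA and 10.6 to 12.9 FPKM in wild type. The selection used the measured values, so these are descriptions.

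Bambi encodes a receptor-like protein that takes part in receptor complexes but cannot signal. Its locus lies on chromosome 18 (3507957 to 3516404, mm10, plus strand, protein-coding). The YAP5SA libraries stood at 13.1, 15.1, 12.9 and 13.4 FPKM of Bambi, against 11.2, 11.2, 11.9 and 10.5 FPKM in wild type. The groups do not overlap, but the gap between the lowest YAP5SA and the highest wild type library is smaller than the range within either group. Bambi rose by 0.27 ± 0.07 on the log2 scale (SE, adjusted p = 0.02). Leaving out wild type replicate 4 ended the call (adjusted p = 0.056), as did both limma fits of the deposited FPKM (adjusted p = 0.053 in each). A processed pseudogene, Bambi-ps1, could share reads with Bambi, and its own locus held 13 to 18 fragments in YAP5SA and 16 to 26 in wild type libraries, against 468 to 537 and 328 to 395 for Bambi.

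Smad6 and Smad7 had the smallest adjusted p-values of the 9 genes after Nog. SMAD6 acts mainly on BMP receptors, and SMAD7 on both BMP and TGF-beta receptors. Smad6 (chr9:63953076-64022281, mm10, minus strand, protein-coding) stood at 31.6, 31.0, 32.7 and 32.5 FPKM in YAP5SA, against 21.5, 22.0, 25.0 and 21.5 FPKM in wild type. The 4 YAP5SA libraries lay close together and clear of every wild type library, of which replicate 3 was highest. Smad6 rose by 0.56 ± 0.06 on the log2 scale (SE, adjusted p = 0.00019).

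Smad7 (chromosome 18, 75367365 to 75395934, mm10, plus strand, protein-coding) stood at 17.9, 19.3, 16.0 and 16.4 FPKM in YAP5SA, against 10.7, 9.51, 9.53 and 10.4 FPKM in wild type. Again no libraries overlap between the genotypes. Its log2 fold change was 0.78 ± 0.08 (SE, adjusted p = 0.00014). Together Smad6 and Smad7 reached 0.724, 0.808, 0.727 and 0.729 of the summed FPKM of Smad1 and Smad5 in the YAP5SA libraries, and 0.513, 0.476, 0.502 and 0.464 in wild type. Smad1 and Smad5, which carry the signal that the inhibitory Smads block, had log2 fold changes of −0.09 ± 0.06 and 0.01 ± 0.06 and no call.

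The Id genes were the most abundant of the 9, with log2 fold changes of 0.08 to 0.20. ID1, ID2 and ID3 are helix-loop-helix proteins without a DNA-binding region, and BMP-activated SMADs induce their genes directly in many cell types. Id2 (chr12:25093799-25096299, mm10, minus strand, protein-coding) stood at 81.3, 89.1, 83.9 and 87.6 FPKM in YAP5SA, against 80.1, 72.9, 75.0 and 70.1 FPKM in wild type. The genotypes do not overlap, but YAP5SA replicate 1, the lowest of its group, is close to wild type replicate 1, the highest of its own. Id2 rose by 0.20 ± 0.06 on the log2 scale (SE, adjusted p = 0.037). With the replicate number as a block the adjusted p of Id2 was 0.066, and leaving out any library other than YAP5SA replicate 1 or wild type replicate 1 gave 0.059 to 0.094.

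Id1 (chr2:152736274-152737410, mm10, plus strand, protein-coding) stood at 85.4, 103, 97.6 and 102 FPKM in YAP5SA, against 91.5, 81.9, 84.8 and 80.0 FPKM in wild type. The overlap comes from the libraries numbered 1: YAP5SA replicate 1 lies below wild type replicate 1, while the other YAP5SA libraries lie above all wild type libraries. Id1 had a log2 fold change of 0.19 ± 0.07 (SE, adjusted p = 0.11), with a 95% interval of 0.02 to 0.35. Without YAP5SA replicate 1 it was 0.25 (adjusted p = 0.018).

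Id3 (chr4:136143822-136145392, mm10, plus strand, protein-coding) stood at 94.8, 107, 112 and 114 FPKM in YAP5SA, against 110, 91.3, 99.5 and 103 FPKM in wild type. The libraries of the genotypes interleave. Id3 had a log2 fold change of 0.08 ± 0.07 (SE, adjusted p = 0.56), with a 95% interval of −0.09 to 0.24.

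In each genotype the order of levels began with Id3, Id1, Id2 and Smad6, where the neighbouring Id genes overlapped in their libraries and Id2 was clear of Smad6. The summed FPKM of the Id genes was 290 ± 19.2 in YAP5SA and 260 ± 15.1 in wild type (SD, n = 4). The libraries overlap, with YAP5SA replicate 1 at 261 and the wild type libraries at 246 to 281. Their binding partners, the E protein genes Tcf3, Tcf4 and Tcf12, had log2 fold changes of −0.09 ± 0.06, −0.05 ± 0.07 and −0.13 ± 0.05 and no call. The FPKM ratio of the summed Id genes to the summed E protein genes was 1.91, 2.03, 1.93 and 2.03 in YAP5SA and 1.81, 1.61, 1.70 and 1.57 in wild type.

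Counts did not follow library depth in the same way at all coverages. Id1 and Id3 had on average 0.398 and 0.312 fragments per exonic base, Id2 0.259, Smad6 0.144 and Nog 0.102. Among the 526 tested loci with 0.3 to 0.5 fragments per exonic base, counts followed library depth within the genotypes with a median log-log slope of 0.43, where proportional counts would give 1. In the range of Id2, 0.2 to 0.3 fragments per exonic base, the median slope was 0.55, and in that of Nog and Smad6, 0.1 to 0.2, it was 0.82. It was 1.1 in the range of Bambi and Smad7, 1.5 in that of Chrd and 1.9 in that of Grem1, the sparsest of the 9. The YAP5SA libraries were deeper, and the median log2 fold change was −0.06 over the loci in the range of Id1 and Id3, −0.01 in that of Id2 and −0.12 in that of Grem1. The part of coverage in the values of the 9 genes was not tested.

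**Figure D3:**
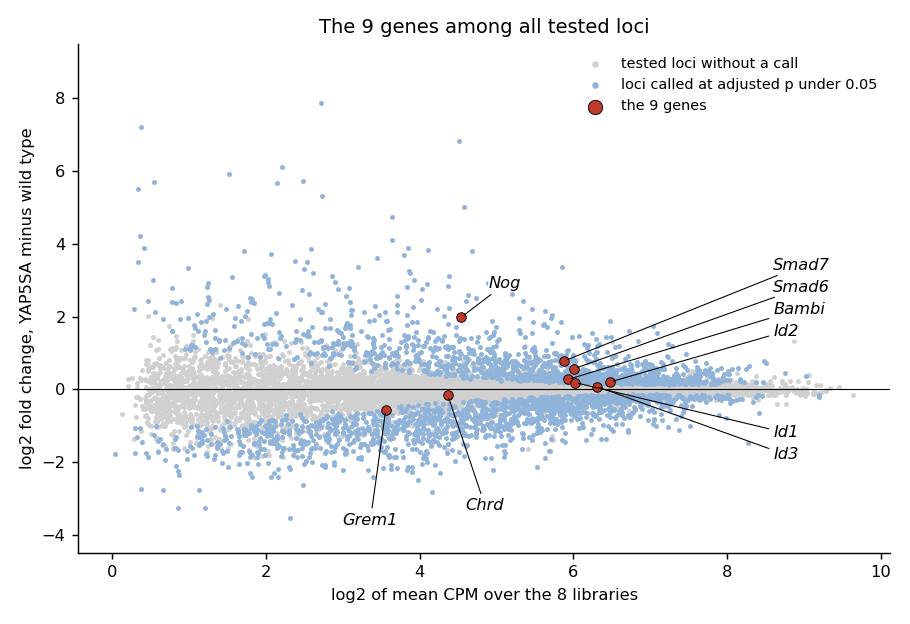
Log2 fold change (YAP5SA minus wild type, edgeR) against the log2 of the mean CPM over the 8 libraries for all 14574 tested loci, with loci called at an adjusted p under 0.05 in blue and the 9 genes in red. Nog lies at 1.98, Smad7 at 0.78 and Smad6 at 0.56, while the Id genes lie between 0.08 and 0.20.

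The 250 bases before the RefSeq transcription start are printed for Smad6, Id2 and Id3, to show genes that moved and genes that moved little. They are from GRCm38.p6, the same assembly as mm10, and run 5′ to 3′ on the gene's strand. RefSeq promoter windows were matched for 5 of the 9 genes: Grem1, Chrd, Smad6, Id2 and Id3. Capitals mark the 2 motifs searched on both strands, GGAATG, the core recognised by the TEAD partners of YAP (CATTCC on the other strand), and GGCGCC, a palindrome found in BMP-responsive elements. The windows lie at chr9:64022060-64022309 for Smad6, chr12:25096093-25096342 for Id2 and chr4:136143572-136143821 for Id3. Those of Smad6 and Id2 reach into the assembled loci, which end at 64022281 and 25096299. The GENCODE genes Id2 (25093799 to 25097140) and Id3 (136143497 to 136145755) contain their whole windows, so other annotated starts lie further upstream.
Smad6: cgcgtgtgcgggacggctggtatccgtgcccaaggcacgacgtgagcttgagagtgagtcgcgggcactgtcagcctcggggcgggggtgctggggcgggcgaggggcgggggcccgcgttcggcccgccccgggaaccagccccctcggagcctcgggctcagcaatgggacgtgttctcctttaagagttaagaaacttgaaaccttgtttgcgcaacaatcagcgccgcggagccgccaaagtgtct
Id2: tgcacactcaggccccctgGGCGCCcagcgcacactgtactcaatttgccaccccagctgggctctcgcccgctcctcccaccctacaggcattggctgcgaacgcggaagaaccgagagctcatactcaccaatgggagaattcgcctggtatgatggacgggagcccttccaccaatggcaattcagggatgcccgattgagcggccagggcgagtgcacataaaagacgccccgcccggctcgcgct
Id3: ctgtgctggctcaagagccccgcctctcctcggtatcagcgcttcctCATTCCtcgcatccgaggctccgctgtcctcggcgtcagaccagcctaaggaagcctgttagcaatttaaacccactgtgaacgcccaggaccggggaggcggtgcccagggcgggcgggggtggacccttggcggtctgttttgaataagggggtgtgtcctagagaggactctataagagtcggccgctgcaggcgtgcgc

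The window of Smad6 is the richest in G and C, at 66.8% with 27 CG dinucleotides, against 62.8% and 18 in each of the Id windows. Within windows of 300 bases, which end 50 bases after the start, GGCGCC occurred once each in Id2, Grem1 and Chrd, and in 11.9% of all 32851 RefSeq windows. GGAATG occurred once, on the opposite strand in Id3, and in 14.7% of all windows. Neither motif occurred in the Smad6 window, which says only that these letters are not in it.

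Of 73 other genes of the pathway, 70 had a locus of their own and 62 were tested, with 14 called higher and 10 lower in YAP5SA. Over all tested loci 9.06% were called higher and 9.85% lower, the shares to set beside this count and those of each list below. With the replicate block the counts were 17 and 11, with Bmp2, Bmp6, Nbl1 and Eng gained and Smurf1 lost among the higher genes, and Tob1 and Dlx5 gained and Bmpr1b lost among the lower ones. The secreted modulators went both ways, with 3 of 15 higher and 4 lower. Sostdc1, a BMP and Wnt antagonist, was at 16.2 ± 3.18 FPKM in YAP5SA and 5.92 ± 1.17 FPKM in wild type (SD, n = 4), a log2 fold change of 1.43 ± 0.19 (adjusted p = 0.00072). Fstl3, a follistatin-like binder of activins, rose by 1.16 ± 0.17 and Crim1, a membrane protein that binds BMPs, by 0.83 ± 0.10. Follistatin (Fst), which binds activins and some BMPs, fell by 0.66 ± 0.11 to 21.9 ± 2.91 FPKM in YAP5SA, against 34.4 ± 5.03 FPKM in wild type. Chordin-like 1 (Chrdl1) fell by 0.65 ± 0.13. The chordin-cleaving protease gene Bmp1 fell by 0.20 ± 0.04. Twsg1, whose product works with chordin, fell by 0.16 ± 0.04 and lost its call without YAP5SA replicate 2, 3 or 4 or wild type replicate 1 or 3 (adjusted p = 0.052 to 0.067).

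Of 10 tested BMP and GDF ligands, 4 were called higher and 1 lower. Bmp4, a ligand that noggin binds, was at 47.1 ± 4.93 FPKM in YAP5SA and 33.0 ± 3.17 FPKM in wild type (SD, n = 4), a log2 fold change of 0.50 ± 0.09 (adjusted p = 0.0033). Gdf6, Bmp3 and Bmp8b rose by 1.54 ± 0.16, 1.94 ± 0.38 and 2.74 ± 0.47, the last at 0.569 ± 0.126 FPKM in wild type. The value for Bmp3 ranged from 1.52 to 2.2 as each library was left out in turn, and its call held. The value for Bmp8b was 2.18 without YAP5SA replicate 1 and 1.62 on the log2(FPKM + 1) scale, where its call held. Bmp5 fell by 1.04 ± 0.15. Bmp2 was at 6.67 ± 2.68 FPKM in YAP5SA and 3.60 ± 1.04 FPKM in wild type (adjusted p = 0.053), and it passed with the replicate block (adjusted p = 0.0037), in DESeq2 (0.019), without YAP5SA replicate 4 (0.02) and without wild type replicate 1 (0.049). Bmp7 had a log2 fold change of 0.02 ± 0.06 and no call.

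Of 11 receptors and coreceptors edgeR called 0 higher and 3 lower, where 9.06% of all tested loci were called higher and 9.85% lower. Among only 11 genes, a count of 0 higher is not far from that share. At an unadjusted p under 0.05, 2 were higher (Bmpr2 and Eng), and DESeq2 called 1 of these, Eng. Eng also passed without YAP5SA replicate 1 (adjusted p = 0.04) and without wild type replicate 1 (0.021), and Bmpr2 without YAP5SA replicate 2 (0.043). Rgmb and Rgma, repulsive guidance molecules that act as BMP coreceptors, fell by 0.85 ± 0.08 and 0.62 ± 0.11. The type I receptor gene Bmpr1b fell by 0.56 ± 0.17 (adjusted p = 0.04), a call that was lost with the replicate block (adjusted p = 0.065) and without any library other than YAP5SA replicate 1 or wild type replicate 1 (0.062 to 0.11). The other type I receptor gene Bmpr1a had a log2 fold change of 0.03 ± 0.05 and no call.

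Among 12 SMAD transducers and regulators, 4 were called higher and 1 lower. Smad9, the least abundant BMP-activated Smad in these libraries, rose by 0.67 ± 0.12 to 10.5 ± 0.792 FPKM in YAP5SA, against 6.51 ± 1.10 FPKM in wild type. Skil, a corepressor of SMADs, rose by 0.39 ± 0.09 and the repressor gene Zeb1 by 0.28 ± 0.06. The ubiquitin ligase gene Smurf1 rose by 0.14 ± 0.04, a call that was lost with the replicate block (adjusted p = 0.073) and without YAP5SA replicate 3 or 4 or wild type replicate 1, 2 or 4 (0.055 to 0.089). The related ligase gene Nedd4l fell by 0.38 ± 0.07.

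Of 11 other known BMP-SMAD targets, 3 were called higher and 1 lower. Msx1, a homeobox gene, was at 30.1 ± 4.37 FPKM in YAP5SA and 3.95 ± 0.661 FPKM in wild type (SD, n = 4), a log2 fold change of 2.91 ± 0.15 (adjusted p = 4.8e-06). Atoh8 and Hey2, both helix-loop-helix factor genes, rose by 0.74 ± 0.13 and 0.72 ± 0.10. Cyp26b1, which degrades retinoic acid, fell by 0.50 ± 0.16 (adjusted p = 0.049), a call that was lost without any library other than wild type replicate 1 (adjusted p = 0.051 to 0.14). Id4, the remaining Id gene, had a log2 fold change of −0.09 ± 0.09 and no call.

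**Figure D4:**
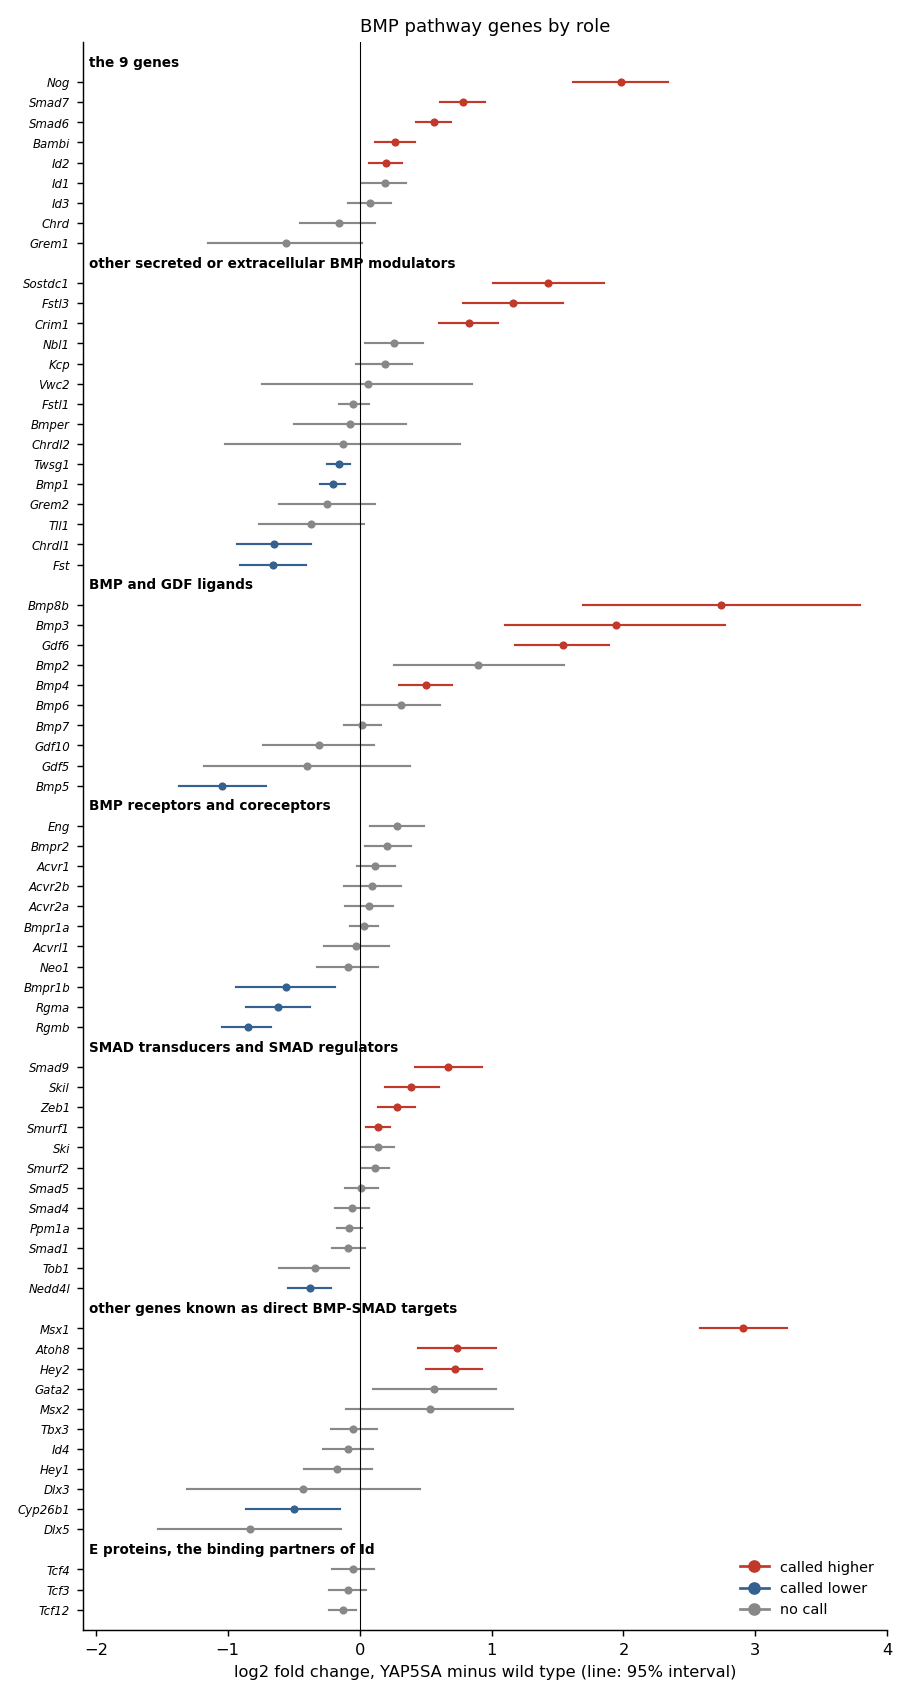
Log2 fold change (YAP5SA minus wild type) with its 95% interval for the 9 genes and for the 62 tested genes of the other BMP lists, grouped by role, with called genes in red (higher) and blue (lower). Nog (1.98) and Msx1 (2.91) lie far right of the Id genes, and all 3 called receptors and coreceptors lie left of 0.

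Markers of the cell types in the stomach differed between the genotypes, and their part in the values above was not tested. Endothelium, where Smad6, Smad7 and Id genes are commonly expressed, had 1 of 10 tested markers called higher (Kdr, 38.0 ± 2.54 FPKM in YAP5SA and 24.6 ± 1.87 FPKM in wild type) and 0 lower, with 0 lower at an unadjusted p under 0.05 or by DESeq2. Eng, also on this list, had a log2 fold change of 0.28 ± 0.09 and no call in the main test (edgeR adjusted p = 0.056). It passed in DESeq2 (adjusted p = 0.03) and in edgeR with the replicate block (adjusted p = 0.048). Over all tested loci 9.06% were called higher in the main test, near the 1 of 10 that it called here, and 9.85% lower. The summed level of the endothelium markers was 267 to 312 FPKM in YAP5SA and 242 to 301 FPKM in wild type. For macrophages 7 of 7 tested markers were higher, with sums of 198 to 286 FPKM in YAP5SA and 114 to 147 FPKM in wild type. Epithelial markers were lower in 11 of 11, with sums of 337 to 425 FPKM in YAP5SA and 560 to 650 FPKM in wild type. Of the enteric neuron and glia markers 8 of 9 were lower, with sums of 119 to 147 FPKM in YAP5SA and 239 to 265 FPKM in wild type. Smooth muscle markers were lower in 6 of 8, with sums of 310 to 390 FPKM in YAP5SA and 550 to 616 FPKM in wild type. Mesenchyme had 2 of 8 lower (Foxf1a and Col3a1). The sums over all 8 mesenchyme markers were 440 to 520 FPKM in YAP5SA and 552 to 577 FPKM in wild type. Mesothelium had 1 of 6 lower, Upk3b. The sums over all 6 mesothelium markers were 159 to 192 FPKM in YAP5SA and 170 to 240 FPKM in wild type. Upk3b lost its call without YAP5SA replicate 2, 3 or 4 or wild type replicate 2 or 3 (adjusted p = 0.052 to 0.085). The called markers were named after their values were seen. Of the markers of these 7 cell types with a locus of their own, 0 were at 0 in every library.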

How the data were processed

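Whole stomachs at E13.5 were profiled by RNA-seq (Trizol RNA, Illumina TruSeq kit, per the labels' protocols). The submitters' processing notes name the build mm10 and the tools TopHat2 2.0.9, Cuffdiff and Cufflinks 2.2.1, with no role; strand use and duplicate handling are not given in the sources used here. The deposited tables give, per the file headers, raw fragments per locus and library, which are estimated counts (10.6% to 11% of values not whole), and FPKM scaled by the authors. The table numbers libraries from 0 and the labels from 1; 0 was taken as replicate 1, which no source states. Starts were shifted by 1 base to count from 1.

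Counts were rounded and tested with edgeR 4.0.16 in R 4.3.3 (quasi-likelihood test, robust, TMM, filterByExpr with 10 fragments and 15 in total, genotype only, two-sided). The 3582 loci without a gene name (1.85% to 1.97% of fragments) entered neither library sizes nor tests. The edgeR step was tested on simulated data. Same-group libraries differed beyond counting error (chi-square per degree of freedom 2.29 to 7.3). Deviations from the group mean correlated at 0.14 to 0.22 between libraries of the same number and at −0.25 to 0.1 between those of different numbers. The numbers therefore count as pairs, from this check and not from the labels. The test without the block stayed the main one, and calls that differ with the block are given. Alternatives used RLE and upper-quartile factors, no filter, DESeq2 1.42.0, limma 3.58.1 (voom, cyclic loess, and log2 FPKM with 1 or 0.1 added), a replicate block, unnamed loci in library sizes and each library left out. A fit that also tests unnamed loci was added after seeing the data. Intervals are 95% and not adjusted.

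The 9 genes, the BMP and marker lists and the tests were chosen with earlier results of these data known. Named genes were the 9, up to 5 called genes of each BMP list by p, genes that a count of 5 or fewer needs, Bmp4, Bmp2, Bmp7, Bmpr1a, Bmpr1b, Msx1, Id4, Tcf3, Tcf4 and Tcf12, and the 5 loci nearest to Nog. GENCODE M21 gave gene strands, overlaps and exon lengths. 1 marker list is not reported here.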

Additional observations from a re-analysis of the deposited data

Results flagged for a closer look

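Within each genotype, the highest and lowest of the 4 libraries were compared with the rest by Dixon's criterion for 60 genes that the text names, which made 120 groups and picked out 10 values. Chance picks out about 1 group in 20. Grem1 in YAP5SA replicate 3, at 3.52 FPKM, lay below the other YAP5SA libraries. Smad6 in wild type replicate 3, at 25.0 FPKM, lay above the other wild type libraries, as did Bambi-ps1 in the same library (3.77 FPKM) and Kcnf1 in wild type replicate 2 (1.34 FPKM). Kdr in YAP5SA replicate 4 (34.2 FPKM) and Smad5 in wild type replicate 1 (37.7 FPKM) lay below the others of their genotypes. The remaining 4 were all in YAP5SA replicate 1, the deepest library. There Fst, at 26.3 FPKM, lay above the other YAP5SA libraries. Gdf6 (26.6 FPKM), Tcf12 (47.8 FPKM) and Tcf3 (59.3 FPKM) lay below them.

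An assembled locus without a gene name, outside the comparison above, lies 1319 bases before the Smad7 locus on chromosome 18 (75358619 to 75366045, mm10). It overlaps by 714 bases the annotated noncoding gene Gm20544 on the strand opposite to Smad7. It held 176, 137, 111 and 124 fragments in the YAP5SA libraries, against 70, 78, 49 and 80 in wild type. Its log2 fold change was 0.76 ± 0.18 (SE, n = 4, adjusted p = 0.019) in an edgeR fit of 16929 loci that included unnamed ones, beside 0.79 for Smad7 in that fit, where 8% of loci were called higher.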

How the results depend on the processing

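Under all 19 alternatives Nog (log2 fold change 1.81 to 2.10), Smad7 (0.73 to 0.82) and Smad6 (0.49 to 0.61) kept their calls, and Grem1, Chrd and Id3 had none. The number of the 9 genes called higher was 3 to 6 when libraries were left out in turn, with 3 without wild type replicate 4, and 0 were called lower under any alternative. Id2 was called in 11 of 19 alternatives and lost its call with upper-quartile factors (adjusted p = 0.051). With the replicate block 3036 loci were called, against 2757 without it. Among the 9 genes and the 62 tested pathway genes the block ended the calls of Id2, Bmpr1b and Smurf1 and added Bmp2, Bmp6, Nbl1, Eng, Tob1 and Dlx5 (adjusted p = 0.0037 to 0.048). Leaving out libraries gave 2032 to 2805 called loci. Cyp26b1 lost its call in 15 of 19 alternatives. Bmp7, with no call, changed sign when libraries were left out (−0.01 to 0.06), as did Tcf4 (−0.09 to 0.02), Smad5 (−0.03 to 0.06) and Thpo (−0.11 to 0.22). Tcf12 passed with upper-quartile factors (0.044), cyclic loess (0.048) and DESeq2 (0.039). The cause of these shifts was not tested. Counting error weighs on the sparse genes, with 38 to 118 fragments per library for Grem1 and 50 to 75 per wild type library for Nog.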

Other observations

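Bmp2, Bmp3 and Bmp8b varied widely among the YAP5SA libraries, more than the secreted antagonists did. Bmp3 was at 14.2, 9.48, 6.94 and 3.99 FPKM in YAP5SA replicates 1 to 4, against 1.66 to 2.94 FPKM in wild type. Bmp8b was at 8.16, 3.70, 3.62 and 1.69 FPKM in YAP5SA, against 0.431 to 0.734 FPKM in wild type. Bmp2 was at 10.3, 6.76, 5.60 and 4.01 FPKM in YAP5SA, against 2.23 to 4.54 FPKM in wild type. In each of the 3 ligands YAP5SA replicate 1 was highest and YAP5SA replicate 4 lowest, and Nog too was lowest in YAP5SA replicate 4. Wild type replicate 1 was likewise the highest of its group in each, at 4.54 FPKM for Bmp2, 2.94 for Bmp3 and 0.734 for Bmp8b. The coefficient of variation over the YAP5SA libraries was 40.2% for Bmp2, 50.1% for Bmp3 and 63.9% for Bmp8b, beside 31% for Grem1, 18.1% for Nog and 13.6% for Chrd.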
